A study of Mus musculus with 14 samples.

Results

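The genes described here are 9 genes of thyroid hormone action, taken by symbol from a table of 23427 genes: the hormone receptors Thra and Thrb, the retinoid X receptors (RXRs) Rxra and Rxrg, the deiodinases Dio1, Dio2 and Dio3, and the hormone-responsive genes Klf9 and Hr. Each was measured by mRNA-seq as FPKM, fragments per kilobase of transcript scaled to the mapped fragments of the library, in 14 libraries of primary mouse oligodendrocyte precursor cells (OPCs). FPKM is per length, so levels of different genes can be set side by side. Of the 9 genes, 5 reached the minimum for testing (1 FPKM in at least 2 libraries of the fit): Thra, Rxra, Rxrg, Klf9 and Hr.

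The cells were wild-type C57BL/6J OPCs, immunopanned with an antibody against the PDGF receptor alpha from cortices of 3 pups at postnatal day 7, and each of the 7 groups held 2 libraries. Day0 OPCs were proliferating. The Day3 groups had been differentiating for 3 days, and were non-treated, mock-transfected, transfected with non-targeting NC siRNA #1 or NC siRNA #2, or transfected with siRNA against Secisbp2l (siSbp2l) or Pdgfra (siPdgfra). By the study's methods, differentiation was induced by withdrawing PDGF-AA and adding triiodothyronine (T3), whereas the growth description in the labels names a serum-containing medium, and serum carries thyroid hormones of its own. No Day3 group without T3 was among the libraries, so that hormone and differentiation time cannot be told apart. The 4 Day3 groups without a targeting siRNA served as controls, and their mean weighted each group equally.

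Thyroid hormone enters cells through membrane transporters. Inside, Dio2 converts the prohormone T4 into active T3 by removing an outer-ring iodine, Dio1 can act on both rings, and Dio3 inactivates T4 and T3. T3 binds the nuclear receptors encoded by Thra and Thrb, which sit on DNA as heterodimers with an RXR, hold target genes down with corepressors when unliganded and recruit coactivators when T3 is bound. In OPCs, T3 is known for promoting cell cycle exit and oligodendrocyte (OL) differentiation. All 3 deiodinases are selenoproteins, whose selenocysteine is read from a UGA codon with help from the SECIS-binding protein Sbp2. Secisbp2l, a target of the siRNA used here, encodes Sbp2l, the paralog of Sbp2. The study describes Sbp2l as unable to insert selenocysteine, and saw no reduction of the selenoprotein Gpx4 after its knockdown. It credits a link between Sbp2l and Dio2 synthesis to other work.

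The selenocysteine codons of the 3 deiodinases are shown because they set these genes apart from the other 6. Each line gives 27 bases of coding sequence, 5′ to 3′ on the gene's strand, with the in-frame TGA in capitals.

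Dio1: ggcagttgcaccTGAccttcatttctt

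Dio2: ggttcagccaccTGAccacctttcact

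Dio3: ggcagctgtaccTGAccaccgttcatg

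The Dio1 codon was number 126 of 257 and lay in exon 2 of 4, at chr4:107297688-107297714 on the minus strand. The Dio2 codon was number 130 of 266 and lay in exon 2 of 2, at chr12:90729811-90729837 on the minus strand. The Dio3 codon was number 170 of 304 in a single exon, at chr12:110279727-110279753 on the plus strand. Dio2 had a further in-frame TGA at codon 263, 24 bases of which are shown here.

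Dio2, codon 263: ttcagcaagagaTGAattctagat

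The last line covered chr12:90729415-90729438 on the minus strand. All coordinates are of mm10/GRCm38, and these windows were read from GENCODE vM21 transcripts.

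The genes at the centre of the siRNA results were Klf9, which was lower, and Rxrg, which was higher in siSbp2l. Their promoters are shown as the 250 bases before the RefSeq start on GRCm38.p6, with the receptor motif AGGTCA in capitals where it occurred. The motif was searched on both strands, as was a direct repeat of it with 4 bases between the copies (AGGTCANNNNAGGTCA). The Klf9 window was chr19:23140976-23141225 on the plus strand. Rxrg has 2 windows. That of its first start held no AGGTCA, and the window of its second start, chr1:167618015-167618264 on the plus strand, is the one printed because it held the motif.

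Klf9: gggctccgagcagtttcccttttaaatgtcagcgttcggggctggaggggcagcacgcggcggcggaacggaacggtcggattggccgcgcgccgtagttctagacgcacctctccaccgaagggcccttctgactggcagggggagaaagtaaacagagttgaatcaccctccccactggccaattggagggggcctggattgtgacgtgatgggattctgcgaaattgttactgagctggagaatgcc

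Rxrg: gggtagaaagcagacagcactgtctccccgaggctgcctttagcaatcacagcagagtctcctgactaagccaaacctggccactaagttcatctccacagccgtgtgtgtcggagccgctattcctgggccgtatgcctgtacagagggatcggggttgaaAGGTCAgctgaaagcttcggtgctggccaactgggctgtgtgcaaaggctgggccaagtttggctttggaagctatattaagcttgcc

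AGGTCA was found 88 bases before this Rxrg start and not in the Klf9 window. RefSeq windows existed for 7 of the 9 genes, and Thra and Hr had no entry. Of the 10 member windows, 3 held AGGTCA (1 each of Rxra, Rxrg and Thrb), and none held the direct repeat. Among all 32851 windows of this length, 14.02% held AGGTCA and 0.01522% the repeat. A match describes the letters of the window only.

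The libraries held an estimated 6555880 to 31565422 fragments, and NC siRNA #2 replicate 2 was the shallowest. Replicates differed most in the non-treated group, where the log2 difference between libraries had an SD of 0.457 over genes, against 0.148 to 0.20 in the other groups. Secisbp2l was measured at 3.91 and 3.82 FPKM in siSbp2l and at 134.7 to 255.2 in the control libraries. Pdgfra, the receptor for the PDGF-AA that keeps OPCs dividing, was at 3.30 and 2.69 FPKM in siPdgfra and at 32.4 to 72.1 in the controls. Summed FPKM of 6 oligodendrocyte markers was 225.9 and 202.8 at Day0, 1918 to 3553 in the controls, 1091 and 1191 in siSbp2l, and 1999 and 1876 in siPdgfra. That of 4 OPC markers, Pdgfra among them, was 723.9 and 755.7 at Day0 and 261.3 to 384.6 in the controls. It was 352 and 366.5 in siSbp2l, and 239 and 212.6 in siPdgfra. The sum of 6 astrocyte markers was 33.79 and 36.1 at Day0, 74.64 to 135.4 in the controls, 89.26 and 89.79 in siSbp2l, and 38.32 and 37.62 in siPdgfra. The sum of 5 neuron markers was 29.3 and 27.41 at Day0, 47.8 to 276 in the controls, 199.5 and 200.6 in siSbp2l, and 239.9 and 236.1 in siPdgfra. This sum was mainly Tubb3, which ran from 22.78 to 273.5 FPKM over the 14 libraries. Rbfox3, Snap25, Syt1 and Stmn2 reached at most 1.198, 2.298, 5.159 and 0.0758 FPKM, so the sum does not describe them. Endothelial and pericyte markers stayed at sums of at most 0.2005, and those of microglia at most 9.459. The microglia sum was nearly all P2ry12 (0.5133 to 9.459 FPKM), while Cx3cr1, Csf1r, Aif1 and C1qa were each at most 0.0643. In these bulk libraries, fewer cells of a type and less RNA per cell cannot be told apart.

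**Figure D1:**
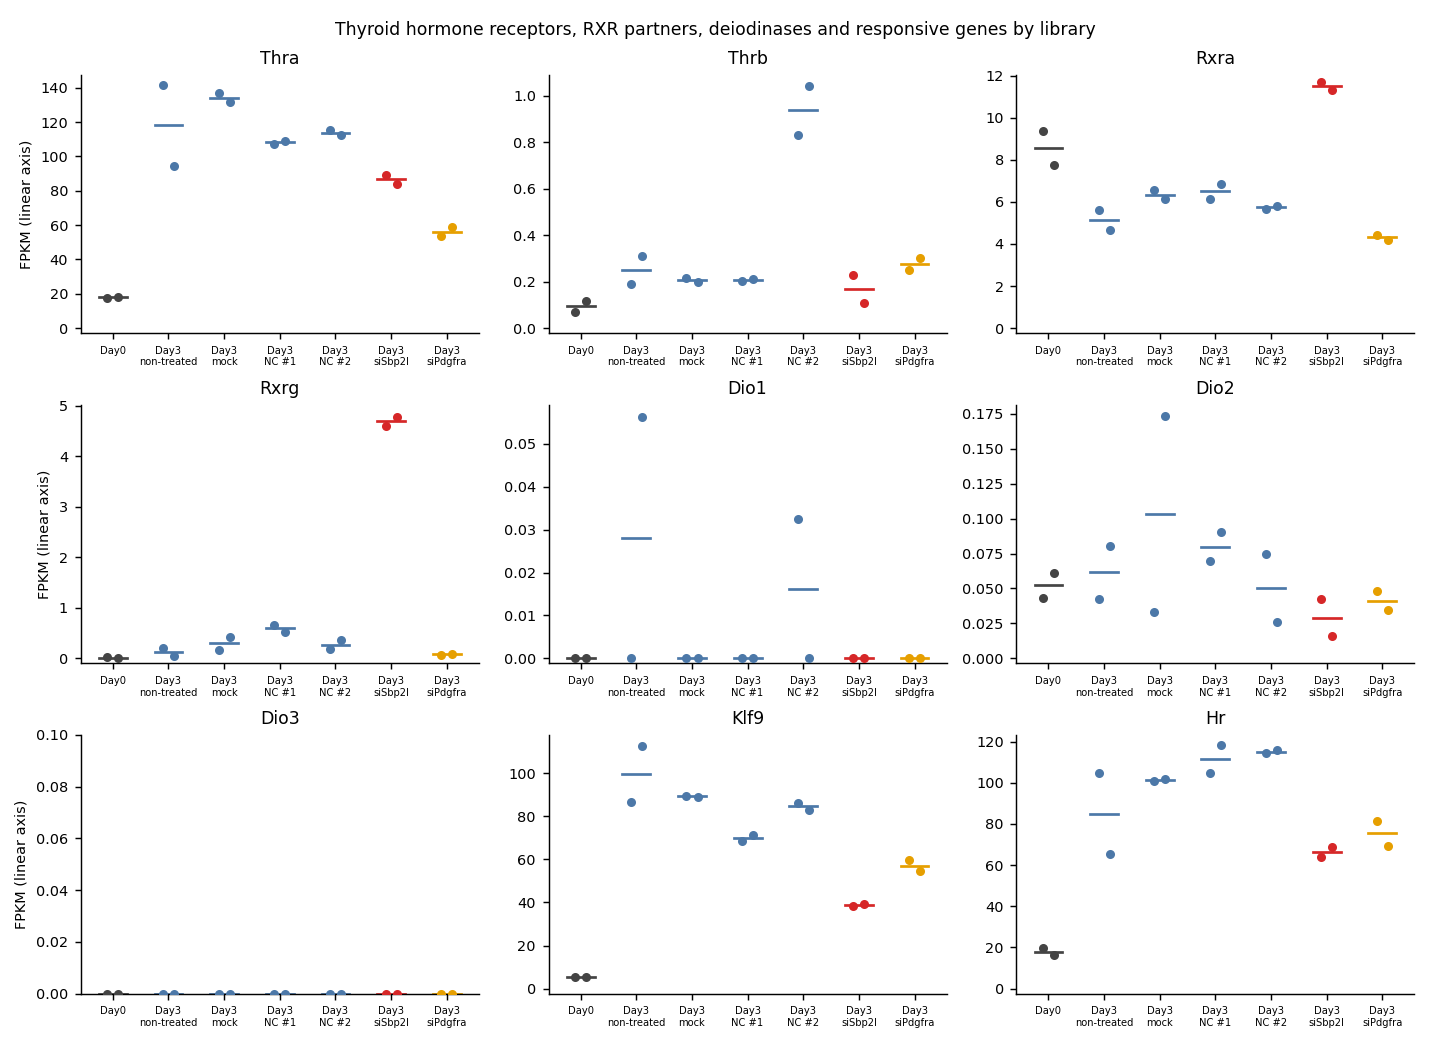
Level of each of the 9 genes in every library, in FPKM on a linear axis with its own range for each gene; dots are libraries and bars are means of 2 libraries (grey, Day0; blue, Day3 controls; red, siSbp2l; orange, siPdgfra). Thra, Klf9 and Hr were higher in every Day3 library than at Day0, Rxra and Rxrg were highest in siSbp2l, Thrb was highest in NC siRNA #2, and the deiodinases lay at or close to 0.

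Whether hormone receptors, their partners and their responsive genes changed as OPCs differentiated was asked first, by setting Day3 non-treated cells against Day0. Thra, Klf9 and Hr were higher at Day3 and Rxra was lower, whereas Rxrg did not pass the test. Of the 5 genes tested, 3 were thus higher, where 28.4% of all 11874 genes tested were higher, and 1 was lower, where 38.6% were. Passing the test means an adjusted p under 0.05 in limma, two-sided, with Benjamini-Hochberg adjustment over all genes tested. A change of at least 2-fold in addition was shown by 3 of the 5, Thra, Klf9 and Hr, against 26.6% of all genes in either direction. Over the same comparison 6 of 6 oligodendrocyte markers and 4 of 4 astrocyte markers tested were higher. Of 4 OPC markers 1 was higher and 3 lower, and of 4 neuron markers tested 1 was higher and 2 lower. The part of these markers in the results was not tested. Differences are given as log2(FPKM + 1), which understates the change of genes near 0.

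Thra encodes the receptor that predominates in most of the brain. It was measured at 17.46 and 18.29 FPKM at Day0, and at 141.5 and 94.72 FPKM in Day3 non-treated cells. In the other controls Thra stood at 136.9 and 131.7 (mock), 107.1 and 109.3 (NC siRNA #1), and 115.3 and 112.4 FPKM (NC siRNA #2). All 8 control libraries lay above both Day0 libraries. Mean Thra was 6.61-fold higher in non-treated cells than at Day0 (log2 difference 2.63, SE 0.15, adjusted p = 3.89e-08), and 7.52-fold higher in mock-transfected cells (log2 difference 2.84, adjusted p = 2.04e-08).

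Thra (chr11:98741873-98765111, plus strand) was counted on 1 transcript model, so its hormone-binding product and the splice variant that does not bind T3 were not separated. The deposited model ended 2823 bases short of Nr1d1, a clock repressor on the opposite strand, but in GENCODE the 2 genes overlap by 1075 bases. Nr1d1 was measured at 9.62 and 7.07 FPKM at Day0 and at 24.6 and 17.0 in Day3 non-treated cells (log2 difference 1.21, adjusted p = 5.92e-05). That overlap lay beyond the end of the deposited Thra model, so reads that lie within it were not counted for Thra. Whether the counting used strand is not given in the sources used here, so the share of Thra reads in the Nr1d1 values is not known.

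Thrb (chr14:17660960-18038088, plus strand) encodes the other hormone receptor, and its level was far below that of Thra. It was listed at 0.0685 and 0.119 FPKM at Day0, and at 0.191 and 0.312 in non-treated, 0.2165 and 0.2004 in mock and 0.203 and 0.210 in NC siRNA #1 cells. In NC siRNA #2 it was at 0.830 and 1.042 FPKM, from 100.4 and 44.8 estimated fragments. Mean FPKM over the 4 controls was 0.401 for Thrb and 118.6 for Thra. Thrb was at 0.230 and 0.108 FPKM in siSbp2l and at 0.249 and 0.300 in siPdgfra, within the range of the controls other than NC siRNA #2 except for siSbp2l replicate 2, which lay below all 8 control libraries. At least 1 FPKM was reached in 1 library only, so Thrb was not tested under the main minimum.

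Without the minimum on low values, Thrb in NC siRNA #1 was lower than in NC siRNA #2 by 0.68 on the log2 scale (adjusted p = 0.000579), a difference between groups that both carried a non-targeting siRNA. siSbp2l lay below the mean over the 4 controls (log2 difference -0.23, adjusted p = 0.0159) and lower than NC siRNA #2 (-0.73, adjusted p = 0.000216). It did not pass against non-treated (-0.10, adjusted p = 0.373), mock (-0.05, adjusted p = 0.702) or NC siRNA #1 (-0.05, adjusted p = 0.708).

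Rxra (chr2:27677201-27763319, plus strand) encodes a broadly expressed RXR. It was measured at 9.39 and 7.76 FPKM at Day0, 5.63 and 4.64 in non-treated, 6.55 and 6.12 in mock, 6.14 and 6.86 in NC siRNA #1, and 5.67 and 5.82 in NC siRNA #2 cells. The lower Day0 library was above the highest control library. Day3 non-treated was lower than Day0 by a log2 difference of -0.64 (SE 0.11, adjusted p = 0.000404), and mock by -0.38 (adjusted p = 0.0117). In mock against Day0, 4 of the 5 genes tested were higher (29.7% of all genes were) and Rxra alone was lower (36.6% of all genes were). The gene higher there in addition was Rxrg, with a log2 difference of 0.35 (adjusted p = 0.0212), from a Day0 pair of 2.2 and 0 estimated fragments.

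Rxrg (chr1:167598362-167639623, plus strand) encodes the RXR with the most restricted expression. It was listed at 0.0297 and 0 FPKM at Day0, where 3 fragments would have been 0.0402 and 0.0565 FPKM. In the controls it was at 0.210 and 0.0439 (non-treated), 0.172 and 0.428 (mock), 0.666 and 0.517 (NC siRNA #1) and 0.178 and 0.357 FPKM (NC siRNA #2). These were 2.2 to 31.0 estimated fragments a library.

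Klf9 (chr19:23141226-23166911, plus strand) encodes a Krüppel-like transcription factor that T3 induces directly in neural cells. It was measured at 5.23 and 5.57 FPKM at Day0 and at 86.6 and 112.5 FPKM in Day3 non-treated cells. It stood at 89.7 and 88.8 (mock), 68.8 and 71.5 (NC siRNA #1), and 86.5 and 83.0 FPKM (NC siRNA #2). Every control library was more than 10-fold above both Day0 libraries. The difference between non-treated and Day0 was 18.4-fold (log2 difference 3.96, SE 0.11, adjusted p = 2.82e-10), the largest of the 5 genes tested in that comparison.

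Hr (chr14:70554056-70573542, plus strand) encodes Hairless, a nuclear corepressor that binds thyroid hormone receptors and is itself induced by T3 in developing brain. It was measured at 19.8 and 16.1 FPKM at Day0 and at 104.8 and 65.2 FPKM in non-treated cells, the widest control pair. The other controls were at 100.8 and 101.9 (mock), 105.0 and 118.1 (NC siRNA #1), and 114.3 and 116.1 FPKM (NC siRNA #2). Day3 non-treated was 4.73-fold above Day0 (log2 difference 2.15, SE 0.18, adjusted p = 1.38e-06), and mock 5.64-fold (log2 difference 2.44, adjusted p = 4.74e-07).

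The deiodinases were close to undetected throughout. Dio3 (chr12:110279230-110281097, plus strand) was listed at 0 in all 14 libraries, where 3 fragments would have been 0.0509 to 0.245 FPKM. Its antisense neighbour Dio3os was also listed at 0 in all 14. Dio1 (chr4:107291465-107307143, minus strand) was listed at 0 in 12 libraries, with 2 estimated fragments in non-treated replicate 2 and 1 in NC siRNA #2 replicate 1. Levels up to the value of 3 fragments cannot be distinguished from 0 at this depth, and such limits cover counting error only.

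Dio2 (chr12:90724552-90738438, minus strand), the enzyme that makes T3 from T4 in the brain, had a few fragments in every library. It was at 0.0435 and 0.0611 FPKM at Day0, 0.0424 and 0.0159 in siSbp2l, and 0.0482 and 0.0344 in siPdgfra. The 8 control libraries ranged from 0.0262 to 0.174 FPKM with a median of 0.0721, and the mock pair spanned nearly all of that, at 0.0331 and 0.174. These values were 1 to 21 estimated fragments a library, 5 and 2 of them in siSbp2l. Mean Dio2 was 0.0292 FPKM in siSbp2l and 0.0738 in the controls. The siSbp2l pair lay below both libraries of non-treated and of NC siRNA #1, and overlapped mock and NC siRNA #2. Without the minimum on low values the difference did not pass (log2 difference -0.06, adjusted p = 0.324). With so few fragments, and a pseudocount of 1 far above these values, that test could not settle whether Dio2 differed. The protein and its activity were not measured here.

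The next question was how the genes responded to siSbp2l. Rxra and Rxrg were higher and Klf9, Hr and Thra were lower than the mean of the 4 controls. Of the 5 genes tested, 2 were higher (35.5% of all 11650 genes tested were) and 3 lower (17.9%). Rxrg reached the minimum for testing only through siSbp2l, so it had to differ there and its call is no support for these counts. Of the other 4 genes, Rxra was higher and Klf9, Hr and Thra lower, and Klf9 alone changed by at least 2-fold, where 7.19% of all genes did. The median difference of all genes was 0.15 here and 0.09 for siPdgfra against the same controls, on the log2 scale. It was -0.12 for non-treated against Day0. With median-ratio scaling of the values, 22.0% of genes were higher and 24.8% lower in siSbp2l, and Rxra, Rxrg, Klf9, Hr and Thra each kept their direction and passed.

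Rxrg was at 4.60 and 4.78 FPKM in siSbp2l, from 220.1 and 244.6 estimated fragments, and at 0.0439 to 0.666 FPKM in the 8 control libraries. The lower siSbp2l library was above the highest control library, NC siRNA #1 replicate 1. The means differed 14.6-fold (log2 difference 2.12, SE 0.10, adjusted p = 2.83e-07). Against the single controls the fold ran from 7.93 (NC siRNA #1) to 36.9 (non-treated).

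Rxra was at 11.7 and 11.3 FPKM in siSbp2l and at 4.64 to 6.86 FPKM in the controls, without overlap. Its mean was 1.94-fold higher (log2 difference 0.86, 95% CI 0.67 to 1.05, adjusted p = 2.32e-05). siSbp2l was also above both Day0 libraries (9.39 and 7.76 FPKM), by a log2 difference of 0.39 (adjusted p = 0.0107), whereas all 4 controls were lower than Day0. Rxra passed against all 4 controls taken singly, where 13.9% of all genes tested were higher against each of the 4. Rxrg did as well, with its call fixed by the minimum as above.

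Rxrb, the remaining RXR and not one of the 9 genes, was at 20.4 and 23.1 FPKM in siSbp2l and at 10.7 to 22.7 FPKM in the controls. The groups overlapped and the difference did not pass (log2 difference 0.24, SE 0.16, adjusted p = 0.247). By mean FPKM over the 4 controls, Rxrb was the highest of the RXR genes at 18.7, followed by Rxra at 5.93 and Rxrg at 0.322.

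Klf9 was at 38.5 and 39.5 FPKM in siSbp2l, below the lowest control library of 68.8. The mean was 0.454 times that of the controls (log2 difference -1.10, 95% CI -1.32 to -0.89, adjusted p = 8.97e-06). Klf9 passed against each of the 4 controls, where 7.94% of all genes were lower against each, and the difference ran from -0.83 (NC siRNA #1) to -1.32 (non-treated) on the log2 scale. Klf9 in siSbp2l was still 7.22-fold above Day0, against 15.9-fold for the mean of the controls.

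Hr was at 64.0 and 68.9 FPKM in siSbp2l. Non-treated replicate 2, at 65.2, lay between these values, and the other 7 control libraries were above both. The mean was 0.644 times that of the controls (log2 difference -0.61, SE 0.15, adjusted p = 0.00588). Hr passed against mock, NC siRNA #1 and NC siRNA #2 and not against non-treated (log2 difference -0.31, adjusted p = 0.187). Without siSbp2l replicate 1, the difference from the mean of the controls was -0.56 (adjusted p = 0.0705).

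Thra was at 89.4 and 83.9 FPKM in siSbp2l, below the lowest control library of 94.72. The mean was 0.730 times that of the controls (log2 difference -0.44, 95% CI -0.72 to -0.16, adjusted p = 0.0137). Against single controls it passed only against mock (adjusted p = 0.00955), and not against non-treated (0.0505), NC siRNA #1 (0.123) or NC siRNA #2 (0.0706). It passed against all 4 with median-ratio and with upper-quartile scaling. Without siSbp2l replicate 1 the adjusted p was 0.0665, and without replicate 2 it was 0.118.

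Against Day0 instead of the Day3 controls, Thra, Rxra, Klf9 and Hr were all higher in siSbp2l, where 36.4% of all genes were higher and 29.0% lower. Rxrg was higher as well, but its call was fixed by the minimum for testing, as above. The log2 differences were 2.21 for Thra, 0.39 for Rxra, 2.49 for Rxrg, 2.64 for Klf9 and 1.84 for Hr. Thra in siSbp2l was 4.85-fold above Day0 and Hr 3.70-fold, and the control means were 6.64-fold and 5.75-fold above it. Markers were read against the controls, where 17.9% of all genes were lower and 35.5% higher in siSbp2l. Oligodendrocyte markers moved with these results: 5 of 6 were lower and 1 higher in siSbp2l than in the controls, and their summed FPKM was below every control library. Of the astrocyte markers tested, 3 were lower and 1 higher, and the 3 neuron markers tested were higher. The higher astrocyte marker did not pass under median-ratio or upper-quartile scaling, and the higher oligodendrocyte marker did not under median-ratio scaling. Of 4 OPC markers, 2 were higher and 1 lower, and Pdgfra, one of those higher, had a mean 2.84-fold above that of the controls (log2 difference 1.54, adjusted p = 4.73e-07). The part of these markers in the results on Klf9, Hr, Thra, Rxra and Rxrg was not tested.

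**Figure D2:**
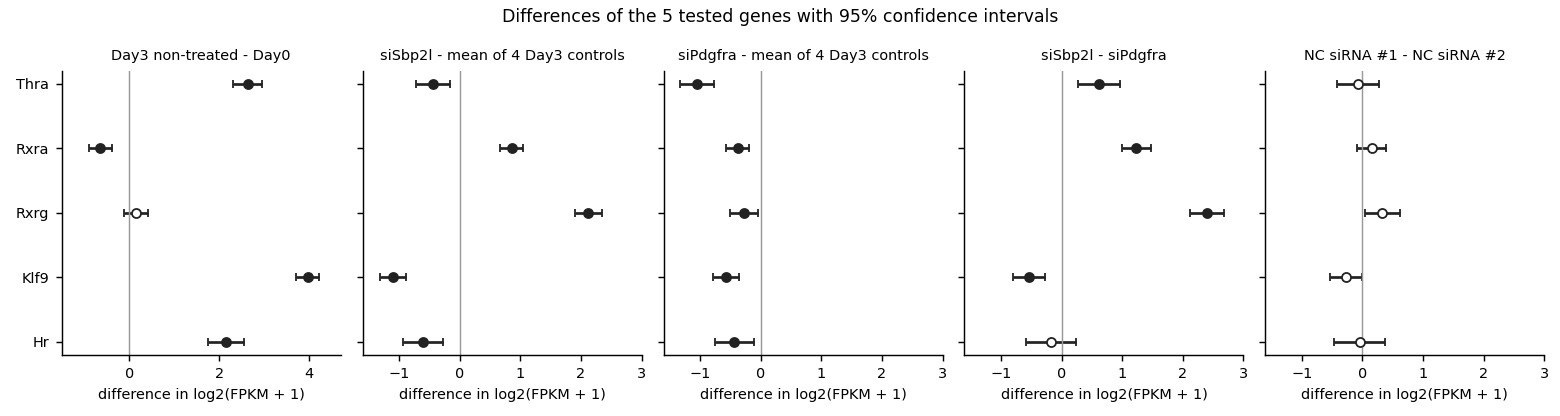
Differences of the 5 genes tested in 5 comparisons, as log2(FPKM + 1), with 95% confidence intervals as bars; the first panel has a wider axis than the other 4. Filled circles passed at an adjusted p under 0.05 and open circles did not: Klf9 was lower with both siRNAs, Rxra and Rxrg were higher in siSbp2l and lower in siPdgfra, and none passed between NC siRNA #1 and NC siRNA #2. Rxrg reached the minimum for testing only through siSbp2l, so its call there was fixed in advance.

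siPdgfra was compared with the same control libraries, so its values and those of siSbp2l share their reference. All 5 genes tested were lower (23.0% of all genes were, and 32.4% were higher). Rxrg among them reached the minimum for testing only through siSbp2l, and its call was made in 10 of 18 alternative settings. Thra alone was lower by at least 2-fold, where 7.99% of all genes passed 2-fold in either direction. With median-ratio scaling 25.8% of genes were higher and 27.8% lower.

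Thra was at 53.73 and 58.7 FPKM in siPdgfra, the lowest of the Day3 groups. The mean was 0.474 times that of the controls (log2 difference -1.05, SE 0.12, adjusted p = 7.32e-05). Thra passed against each of the 4 controls, where 9.79% of all genes were lower and 12.6% higher against each of them. Mean Thra remained 3.15-fold above Day0.

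Klf9 was at 59.5 and 54.7 FPKM in siPdgfra, below all control libraries (log2 difference -0.57, SE 0.09, adjusted p = 0.00068). It passed against non-treated, mock and NC siRNA #2, and not against NC siRNA #1 (adjusted p = 0.0702). Hr was at 81.5 and 69.4 FPKM, both above non-treated replicate 2 and below the other 7 control libraries (log2 difference -0.43, SE 0.15, adjusted p = 0.0294). Leaving out siPdgfra replicate 1 gave an adjusted p of 0.0604 for Hr, leaving out replicate 2 gave 0.242, and leaving out replicate 2 of mock, NC siRNA #1 or NC siRNA #2 gave 0.0512 to 0.0547. Without the minimum on low values it was 0.0523.

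Rxra was at 4.44 and 4.19 FPKM in siPdgfra, below the lowest control library of 4.64 (log2 difference -0.38, SE 0.09, adjusted p = 0.00407). It passed against 3 of the 4 controls, not against non-treated (adjusted p = 0.144). Without siPdgfra replicate 2 the adjusted p was 0.051. Rxrg was at 0.0657 and 0.0939 FPKM, 3.3 and 4.4 estimated fragments, and overlapped non-treated. Its difference was -0.28 (adjusted p = 0.0399), which did not pass with a pseudocount of 5 (0.0794), without the minimum (0.0515), with the replicate number as a block (0.0516), without either siPdgfra library (0.189 and 0.141), or without mock replicate 2, NC siRNA #1 replicate 1 or NC siRNA #2 replicate 2 (0.0614 to 0.0721).

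Rxrb was at 8.99 and 8.66 FPKM in siPdgfra, below the lowest control library of 10.7 (log2 difference -0.97, SE 0.16, adjusted p = 0.00071). Against Day0, 3 of the 5 genes were higher in siPdgfra (Thra, Klf9 and Hr; 33.7% of all genes were) and Rxra was lower (34.1% were). Against the controls, 23.0% of all genes were lower and 32.4% higher in siPdgfra. Here the 4 astrocyte markers that could be tested were all lower in siPdgfra than in the controls, and 3 of 6 oligodendrocyte markers were lower and 2 higher. All 4 OPC markers were lower too. Pdgfra among them is the target of this siRNA, so its lower level was fixed by the treatment and does not count as a marker result. The part of these markers in the results on Thra, Klf9, Hr, Rxra and Rxrb was not tested.

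The 2 siRNAs were also compared directly, which uses no control library. Rxra and Thra were higher in siSbp2l than in siPdgfra, where 28.5% of all genes were higher. Klf9 was lower, where 23.4% of all genes were lower. Rxrg was higher as well, but it reached the minimum for testing only through siSbp2l, so its call is no support here. The log2 differences were 1.23 for Rxra (adjusted p = 9.87e-06), 2.40 for Rxrg (5.34e-07), 0.62 for Thra (0.00817) and -0.54 for Klf9 (0.00389). Rxra differed by at least 2-fold, as did 13.7% of all genes, and so did Rxrg, which was tested only because it was high in siSbp2l. For Thra the adjusted p was 0.0558 without siSbp2l replicate 1 and 0.0574 without siPdgfra replicate 1. Hr did not pass, with a difference of -0.18 and a 95% CI of -0.59 to 0.24. Rxrb was higher in siSbp2l than in siPdgfra by 1.21 (adjusted p = 0.000786).

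The controls were also compared with each other. Between NC siRNA #1 and NC siRNA #2, limma called none of the 5 genes, where 10.1% of all genes were higher and 10.8% lower. At an unadjusted p under 0.05 there were 2, Klf9 (log2 difference -0.27, adjusted p = 0.151) and Rxrg (0.33, adjusted p = 0.101). In a fit of these groups alone Klf9 passed (adjusted p = 0.00555). The 2 groups also differed in other respects: 5 of 6 oligodendrocyte markers were higher in NC siRNA #1 (median log2 difference 2.53), 3 of the 4 astrocyte markers tested were lower there, and mean Secisbp2l was 1.82-fold higher (adjusted p = 0.00188). Their part in the values of Klf9, Rxrg and Thrb was not tested. When both NC siRNAs were set against mock and non-treated, Klf9 alone passed and was lower by 0.28 (adjusted p = 0.0326; 11.8% of all genes were lower and 16.3% higher). This call on Klf9 was made in 13 of 22 alternative settings, with adjusted p up to 0.107. The 8 control libraries differed by at most 1.64-fold in Klf9, 1.49-fold in Thra, 1.48-fold in Rxra and 1.81-fold in Hr.

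Transport and binding of the hormone were described with 9 genes, of which 3 reached the minimum in the fit with Day0 and 2 at Day3. In non-treated against Day0 the 3 tested were all lower, as were 38.6% of all genes. At Day3, 1 of 2 was higher with each siRNA than in the controls (35.5% of all genes were in siSbp2l and 32.4% in siPdgfra) and none was lower. Slc7a5 and Slc3a2 encode the light and heavy chain of an amino acid transporter that also carries thyroid hormones. Slc7a5 was at 112 and 99.7 FPKM at Day0, 6.37 to 11.6 in the controls, 12.2 and 11.2 in siSbp2l, and 27.6 and 24.2 in siPdgfra. It was the transport gene with the largest difference between non-treated and Day0 (log2 difference -3.36, adjusted p = 6.54e-09). siPdgfra was above the controls by 1.49 (adjusted p = 7.27e-06). siSbp2l was above them by 0.41 (adjusted p = 0.0184), with overlapping groups, and this did not pass with median-ratio (0.0869) or upper-quartile scaling (0.0553).

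Slc3a2 was at 76.9 and 67.6 FPKM at Day0 and at 32.7 to 47.9 in the controls, a log2 difference of -0.84 in non-treated cells (adjusted p = 0.00035). It did not pass with either siRNA, at 0.00 for siSbp2l and 0.10 for siPdgfra. Slc7a8, another light chain, was at 1.07 and 1.12 FPKM at Day0 and at most 0.794 later (non-treated against Day0, -0.46, adjusted p = 0.000944). Slc16a10, a further transporter, ranged from 0.0549 to 0.631 FPKM, Slco1c1 was at most 0.240, and Slco1a4, Slco1b2 and the carrier protein Ttr had at most 4 fragments in a library. Crym, which encodes a cytosolic T3-binding protein, was listed at 0 in all 14 libraries.

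**Figure D3:**
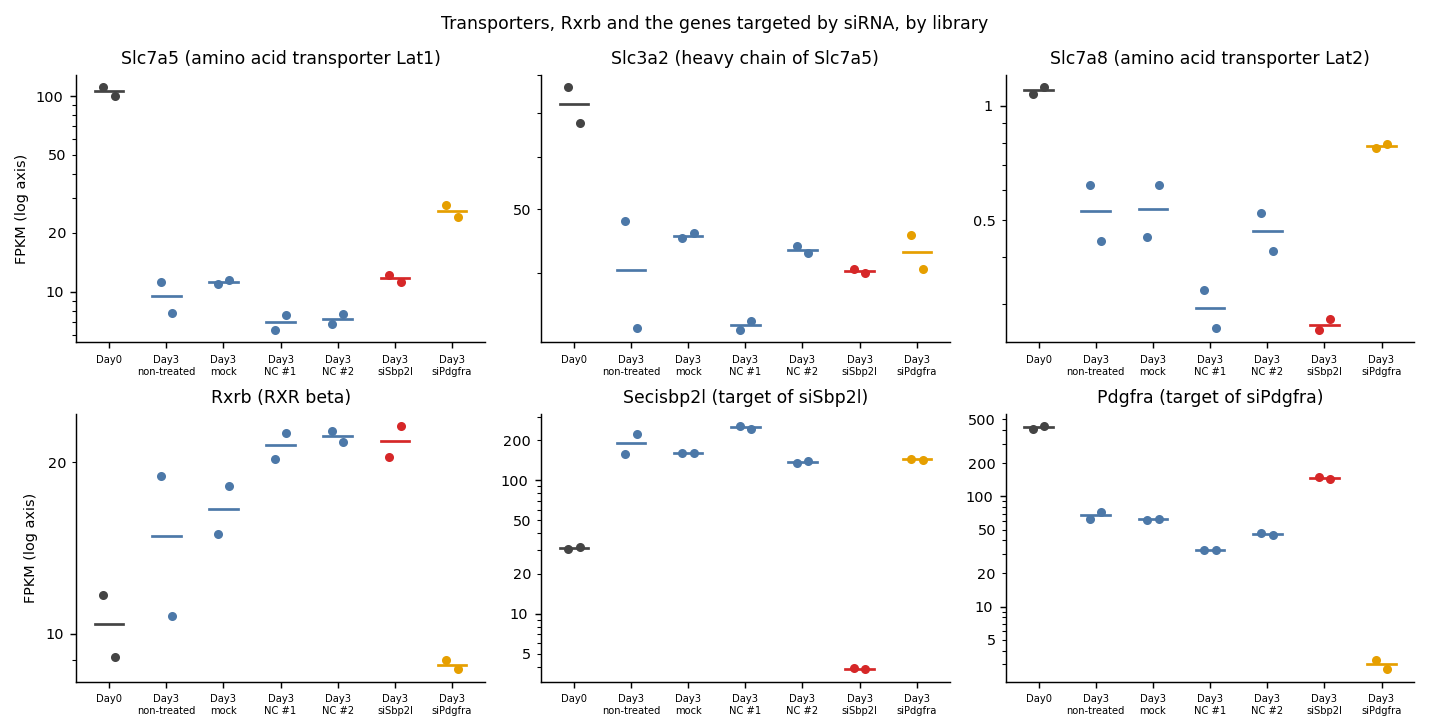
Levels of 3 transporter genes, of Rxrb and of the genes targeted by siRNA in every library, in FPKM on log axes with a range for each gene; dots are libraries and bars are means of 2 libraries, in the colours of the plot of the 9 genes. Slc7a5, Slc3a2 and Slc7a8 were lower in every Day3 library than at Day0, Rxrb was lowest in siPdgfra, and Secisbp2l and Pdgfra were lowest in the libraries with their own siRNA.

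Proteins that the receptors recruit were described with 15 genes, 14 of them tested. In Day3 non-treated against Day0, 2 were higher and 8 lower (28.4% and 38.6% of all genes), with a median of -0.43 against -0.12 for all genes. Kat2b, a histone acetyltransferase, was higher by 1.38, and the corepressor subunit Tbl1x, the mediator subunit Med1 and the ligand-dependent corepressor Nrip1 were lower, at -0.82, -0.73 and -0.66. In siSbp2l, 8 of 14 were higher and 0 lower (35.5% and 17.9% of all genes), with a median of 0.28 against 0.15 for all genes. Nrip1 (1.20), the acetyltransferase Ep300 (0.92), Tbl1x (0.88) and the coactivator Ncoa2 (0.69) had the largest differences. Median-ratio scaling gave 5 higher and 1 lower, upper-quartile scaling 6 and 1. In siPdgfra, 3 were higher and 2 lower (32.4% and 23.0% of all genes), and 2 and 4 under either scaling, led by the coactivators Ncoa3 (0.77) and Ncoa1 (0.67) and by Tbl1x (-0.52) and its paralog Tbl1xr1 (-0.35).

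Of 12 other nuclear receptor genes, 8 were tested. In non-treated against Day0, where 28.4% of all genes were higher and 38.6% lower, 1 was higher, the retinoic acid receptor gene Rarb (1.62), and 3 were lower, the orphan receptor genes Nr4a1 (-2.64) and Nr4a3 (-1.22) and the retinoic acid receptor gene Rarg (-0.48). In siSbp2l, 5 were higher and 1 lower (35.5% and 17.9% of all genes), among them Nr4a1 (1.13), Nr4a3 (0.99) and Rarg (0.70) upward and Rara (-1.02) downward, with a median of 0.52 against 0.15 for all genes. In siPdgfra, where 32.4% of all genes were higher and 23.0% lower, Nr4a1 was higher (0.81), and Rara (-0.61) and Rarg (-0.55) were lower.

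The list of other genes known to respond to T3 held 12, of which 8 were tested. The myelin genes Mbp, Mag and Cnp were among them and also belong to the oligodendrocyte markers. In non-treated against Day0, 6 were higher and 2 lower (28.4% and 38.6% of all genes), the largest differences being Mag (7.99), Mbp (7.12), Cnp (2.85) and the semaphorin gene Sema7a (-1.74). In siSbp2l, 1 was higher and 6 lower (35.5% and 17.9% of all genes), with a median of -0.59 against 0.15 for all genes. The myelin genes led again, with Mag at -2.48, Mbp at -1.97 and Cnp at -0.83, while Reln, an extracellular matrix glycoprotein gene, was higher by 0.87. In siPdgfra, 3 were higher and 4 lower (32.4% and 23.0% of all genes), among them Mag (-2.38), the kinase gene Camk4 (-1.36) and the clock output gene Dbp (-1.10) downward and Reln (0.87) upward. The list also moved between the controls, with 4 higher and 2 lower in NC siRNA #1 than in NC siRNA #2 (10.1% and 10.8% of all genes).

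Klf9 is a target of glucocorticoids as well as of T3, so the glucocorticoid receptor gene Nr3c1 and 6 of its targets were read beside it. In non-treated against Day0, 2 of these 7 were higher and 1 lower (28.4% and 38.6% of all genes). In siSbp2l, 2 were higher and 2 lower (35.5% and 17.9% of all genes), Fkbp5 (0.84) and Zbtb16 (0.44) against Sgk1 (-0.63) and Errfi1 (-0.43). In siPdgfra, where 32.4% of all genes were higher and 23.0% lower, Zbtb16 (1.44) and Tsc22d3 (0.54) were higher and Nr3c1 (-0.89) was lower. Of 9 other Krüppel-like factors, 7 were tested at Day3 and none was lower in siSbp2l, where Klf9 was: Klf11 (0.96), Klf15 (0.70), Klf16 (0.44) and Klf6 (0.28) were higher (4 of 7, against 35.5% of all genes). Under median-ratio and under upper-quartile scaling 2 of these 4 remained, since Klf16 and Klf6 did not pass. In siPdgfra, Klf10 (-0.85) and Klf15 (-0.64) were lower (2 of 7, against 23.0% of all genes), and Klf11 (0.21) was higher but did not pass under either scaling. In non-treated against Day0, 4 of 8 were higher and 2 lower (28.4% and 38.6% of all genes), led by Klf16 (-1.47), Klf13 (1.44), Klf15 (1.26) and Klf4 (-1.16).

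The genes whose levels ran most like those of each member were found by Pearson r of log2(FPKM + 1) over the 14 libraries, among the genes tested. The libraries share groups of 2 and the difference between Day0 and Day3, so these values only describe likeness. For Rxrg the values mostly restate its higher level in siSbp2l (mean 4.691 FPKM, against at most 0.6658 in the control libraries). Asap3 (0.9952), Col20a1 (0.9896) and Mlc1 (0.9844) were most like Thra. Cecr6 (0.9729), Hes1 (0.9639) and Ap2a2 (0.9544) were most like Rxra, and Cntn2 (0.9934), Adamts5 (0.9669) and Crim1 (0.9640) most like Rxrg. For Klf9 these were Dock9 (0.9950), Slc44a1 (0.9942) and Aldh6a1 (0.9939), and for Hr they were Ak1 (0.9909), Mcoln1 (0.9909) and Nipal3 (0.9900). Among the members, Thra, Klf9 and Hr ran together, with r of 0.9344 for Thra and Klf9, 0.9402 for Thra and Hr, and 0.9415 for Klf9 and Hr. Rxra and Rxrg had an r of 0.7396, and Rxra and Klf9 one of -0.5260.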

How the data were processed

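Libraries were made with a stranded mRNA kit from 2 independent replicates per group. Reads were processed by the authors in OmicSoft ArrayStudio against mm10, and the authors deposited FPKM per gene in 1 table that is presented as counts. A second deposited table held the authors' own comparisons of siSbp2l with each of the 4 Day3 controls (log2 fold change, p-value and adjusted p-value, by DESeq2), which were not used, beside each gene's coordinates and exon length, which were. Counting, multi-mapping and strand settings are not given in the sources used here. The column for untreated Day3 cells and 1 misspelt siSbp2l column were matched by name.

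Because FPKM are not counts, log2(FPKM + 1) was tested with limma 3.58.1 in R 4.3.3 (trended, robust empirical Bayes moderation, two-sided, Benjamini-Hochberg). Genes needed at least 1 FPKM in at least 2 libraries of the fit. The 12 Day3 libraries were fitted with 11650 genes and 6 residual degrees of freedom, and all 14 with 11874 genes and 7 for comparisons with Day0. The pseudocount shrinks differences of genes near 0. Fragments were recovered from the steps of low FPKM values, of which 89.4 to 92.8% came out whole (within 0.1) for single-transcript genes. Floors are 3 fragments. The fits were tested on simulated data. Nothing states that replicates came from separate animals, so p-values measure the spread between these cultures.

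Alternatives were another pseudocount (0.1 and 5), filter (none and 5 FPKM), scaling, moderation, choice of libraries, a replicate block and leaving out each library. The members and the gene lists were chosen with earlier results of these data known. Some genes of the lists are not reported here and were left out of the list counts and marker sums. Named in the text were the 9 members, the targeted genes, Rxrb, the transport genes, at most 4 genes with the largest change among those that passed from each other list and comparison, and the 3 genes most like each tested member. Promoters came from RefSeq (GRCm38.p6) and selenocysteine codons from GENCODE vM21.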

Additional observations from a re-analysis of the deposited data

How the results depend on the processing

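Over 25 alternatives, 643 log2 differences were recomputed for the members. Of 412 that belonged to results past the threshold, 29 fell short of it and 0 changed direction. Of the others, 8 passed and 3 changed direction: Hr between NC siRNA #1 and NC siRNA #2 (0.0145 with median-ratio scaling and 0.0365 without NC siRNA #1 replicate 1, against -0.1324 without its replicate 2) and Rxra between the NC siRNAs and the other controls (-0.0445 without the non-treated group). The numbers of members that passed were 4 for non-treated against Day0, 5 for siSbp2l and 5 for siPdgfra against the controls, 4 for siSbp2l against siPdgfra, 0 between the NC siRNAs, and 1 for the NC siRNAs against the other controls. The counts for siSbp2l and siPdgfra include Rxrg, which reached the minimum for testing only through siSbp2l. Without a filter on low values, Thrb was tested too. It passed for non-treated against Day0 (log2 difference 0.19, adjusted p = 0.0488) and for siSbp2l (-0.23, adjusted p = 0.0159), beside the members already counted. The other counts that changed were 3 for siPdgfra, 1 between the NC siRNAs and 2 for the NC siRNAs against the other controls. With only the groups compared they were 1 between the NC siRNAs and 0 for the NC siRNAs against the other controls, and without the non-treated group 1 and 2. With 2-fold required as well they were 3 for non-treated against Day0, 2 for siSbp2l and 1 for siPdgfra. They were 2 for siSbp2l against siPdgfra and 0 for the NC siRNAs against the other controls. Leaving out 1 library at a time, they ranged from 2 to 5 for siSbp2l, 2 to 5 for siPdgfra, 2 to 4 for siSbp2l against siPdgfra, 0 to 1 between the NC siRNAs, and 0 to 3 for the NC siRNAs against the other controls, and stayed at 4 for non-treated against Day0. The lone library of a group was then assumed to vary like the others, and fewer residual degrees of freedom remained. Without either siSbp2l library Rxrg no longer met the filter and was not tested. The causes of the other changes were not tested.

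No pairing by replicate number was seen across all groups: correlations of replicate differences between groups ran from -0.380 to 0.473 and were over 0.1 in 4 of 21 pairs. The highest was for Day0 with non-treated, and whether some groups shared a batch was not tested. With the replicate block, siPdgfra called 4 members (Rxrg at an adjusted p of 0.0516), and the other counts did not change. Depth limits Thrb, Rxrg outside siSbp2l and the deiodinases.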
